A study of Mus musculus with 34 samples.

Results

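The change from 24 h to 72 h of stimulation was followed in T cells of mice that carry the Y170F form of the costimulatory receptor CD28. The comparison rests on the 3 libraries labelled CD28_Y170F at day 3 (72 h) and the 3 at day 1 (24 h), which are 6 of the 34 libraries of the series. The libraries were assigned to these groups by the genotype and day in their labels. Every library was total RNA, depleted of ribosomal RNA, from pan T cells purified from the spleen by negative selection. The mice were C57BL/6, aged 6 to 12 weeks, and the cells of each group used here received antibodies to CD3 and CD28 together with recombinant IL-2. For comparison, WT cells had 2 libraries per day, numbered 1 and 4, and CD28 AYAA cells had 3 per day. The design text calls the libraries biological replicates, without saying how many animals stand behind each or how the alleles were made. The p-values below therefore measure the spread between libraries, and that spread was estimated from all 34 libraries of the series together.

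CD28 gives T cells the second signal that, beside the antigen receptor, full activation requires. Its short cytoplasmic tail carries a tyrosine motif, altered in Y170F, that recruits phosphoinositide 3-kinase once phosphorylated, and a proline motif, altered in AYAA, that binds kinases and adaptors. Activated T cells first switch on immediate-early genes and cytokines, then build ribosomes and raise glucose use, and then divide. The title of the series links CD28 to splicing of Pkm and to glycolysis in CD8 T cells through the nuclear cap-binding complex and ARS2.

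The 6 libraries held 18.6 to 25.2 M counts each. T cell markers were high in all of them, with none of 11 at 0 and a summed level of 2541.3 to 2677.4 CPM (counts scaled to a common library total) at 24 h and 3815 to 4040.4 at 72 h. Both T cell lineages were present: the summed level of Cd8a and Cd8b1 went from 613.9 to 710.2 CPM at 24 h to 953.2 to 1183.4 at 72 h, and that of Cd4 and Cd40lg from 172.91 to 188.37 to 115.32 to 178.72. Among markers of other cells, the 13 B cell genes summed to 409.52, 286.75 and 234.56 CPM at 24 h and to 837.73, 1007.5 and 916.33 at 72 h. Most of that was Ighm, the constant part of IgM, and the other 12 summed to 139.72, 42.15 and 16.86 CPM at 24 h and to 82.33, 65.9 and 41.53 at 72 h. The 14 myeloid genes summed to 20.65 to 27.93 and 28.92 to 30.65 CPM, and 7 erythroid genes to 45.54, 2.08 and 2.87 at 24 h and to 0.84 to 1.14 at 72 h. The 8 natural killer cell genes summed to 76.25 to 122.79 CPM at 24 h and to 138.14, 65.99 and 70.36 at 72 h. The part of these cells in the gene changes was not tested. In bulk RNA, fewer cells of a type and less RNA per cell cannot be told apart.

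Library 1 of 72 h stood apart from libraries 2 and 3 of the same group. Over 9325 well-measured genes (a mean log2 CPM of at least 3), its median absolute log2 difference was 0.292 from library 2 and 0.343 from library 3, against 0.102 between those 2 and 0.0959 to 0.117 among the 24 h libraries. A difference of more than 2-fold separated it from library 2 at 397 genes and from library 3 at 728, while libraries 2 and 3 differed so at 17. Such a spread was not unique in the series. Libraries 2 and 3 labelled Ars2_KO at 72 h had a median difference of 0.292, with 472 genes beyond 2-fold. The 2 WT libraries differed by 0.19 at 24 h and by 0.201 at 72 h. Mitochondrial ribosomal RNA made up 0.0901% of its counts, against 0.009107 to 0.01753% in the other 5. Higher values occurred elsewhere in the series, at 0.18% and 0.1726% in library 3 of CD28 AYAA at 24 h and 72 h. The highest were 17.18% and 17.52%, in the unstimulated WT libraries. The depth of library 1 of CD28 Y170F at 72 h, 25.2 M counts, was close to the 23.1 and 22.3 M of libraries 2 and 3. Results that rest on it are therefore given with and without it, and the genes that set it apart are described after the changes over time.

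Between 24 h and 72 h, CD28 Y170F cells lost activation and cytokine transcripts and the transcripts for building ribosomes. They gained those for mitosis, histones and lipid synthesis. Transcripts of resting T cell identity rose as a list in libraries 2 and 3 of 72 h and not in library 1. Of 18292 genes tested, 7374 (40.3%) passed an adjusted p of 0.05 in edgeR's quasi-likelihood test, 3859 (21.1%) higher and 3515 (19.2%) lower at 72 h. In a fit to only these 2 groups, 4997 genes passed, 2741 higher and 2256 lower. The median log2 change over all genes tested was -0.026. All 72 h libraries lay above all 24 h libraries at 4195 genes (22.9%) and below them at 4023 (22.0%). Without library 1 of 72 h, 3954 genes (21.6%) were higher and 3971 (21.7%) lower, and without both libraries of number 1, 3619 (19.8%) and 3652 (20.0%). The 6531 genes called both times in 1 direction were 88.6% of the first set and 82.4% of the second, and 0 genes were called in opposite directions. All counts of list members below are to be read against the 21.1% and 19.2%. Among the 9325 well-measured genes a larger share was called, 5014 genes in both directions together. For lists of such genes the 21.1% and 19.2% are therefore a low mark. Log2 fold changes are 72 h minus 24 h with their standard error, n = 3 libraries per day.

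Most early activation genes fell. Of 26 immediate-early and early activation genes, 20 fell, 0 rose and 6 did not pass, with log2 changes from -3.53 to 0.48 and a median of -1.70. Nr4a3, an orphan nuclear receptor induced by antigen receptor signals, was at 156, 177 and 153 CPM at 24 h and at 11, 18.2 and 12.9 at 72 h, a log2 change of -3.53 ± 0.27 (adjusted p = 2.7e-10). Nfkbid, which encodes a nuclear regulator of NF-κB, fell by 2.46 ± 0.17 on the log2 scale, and Egr1 and Egr2, zinc finger factors of the early response, by 2.58 and 3.05. Each of these genes had 72 h libraries far below the lowest 24 h library. Irf4, a transcription factor that scales with antigen receptor strength, went from 690, 680 and 582 CPM to 131, 126 and 86.3, a log2 change of -2.51 ± 0.22. Plk3, a stress-responsive kinase, and Rgs1, a regulator of G protein signalling, had log2 changes of -2.43 and -2.37. Among genes picked after their values were seen, Myc fell from 238, 258 and 228 CPM to 105, 61.5 and 51.6, and Cd69, an early surface marker, had a log2 change of -2.07 ± 0.37.

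Cytokine transcripts fell with them. Of 22 tested cytokine and chemokine genes 14 fell and 1 rose, and the median was -2.27. Lif (ENSMUSG00000034394.14, chromosome 11, 4257557 to 4272514, GRCm38), a cytokine of the interleukin-6 family, had the largest drop among the well-measured genes whose days did not overlap. It stood at 107, 92.6 and 87.2 CPM at 24 h and at 9.42, 2.65 and 2.65 at 72 h, a log2 change of -4.27 ± 0.61 (adjusted p = 3.3e-06). Library 1 kept more of it than libraries 2 and 3, and the log2 change without library 1 was -5.17. Lta, encoding lymphotoxin alpha, went from 108, 111 and 128 CPM to 7.66, 7.87 and 5.62, and Tnf from 97.8, 87.5 and 92.7 to 16.4, 11.8 and 13.0. Their log2 changes were -4.03 ± 0.35 and -2.75 ± 0.34. Ccl4, a chemokine, fell from 11.6, 10.9 and 16.4 CPM to at most 0.992. Ifng, seen before it was chosen, encodes interferon gamma and fell from 18.0, 13.6 and 23.1 CPM to 1.10, 0.549 and 0.662. The single gene that rose was Ccl5, a chemokine of memory and cytotoxic cells, from 6.63, 10.5 and 20.4 CPM to 39.8, 30.4 and 40.9. It was named because it was the exception.

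Targets and parts of IL-2 signalling were mostly lower. In the list of IL-2 receptor, STAT5 and SOCS genes, 10 of 17 fell and 4 rose, the latter 2 without library 3 of 72 h. Cish, a STAT5 target that feeds back on cytokine signalling, stood at 323, 332 and 272 CPM at 24 h and at 54.0, 24.1 and 18.8 at 72 h, a log2 change of -3.26 ± 0.30. Stat5a itself fell by 0.61 ± 0.08 on the log2 scale, while Jak1, a kinase bound to cytokine receptors, rose by 0.77 ± 0.11. Il2ra, the high-affinity receptor chain, went from 713, 689 and 673 CPM to 565, 456 and 282, a log2 change of -0.67 ± 0.21 (adjusted p = 0.012). The Il2ra call was lost without library 3 of 72 h (-0.44, adjusted p = 0.10) and in a fit to only the 2 groups (-0.67, adjusted p = 0.059). Il2rb (0.37, adjusted p = 0.047) was no longer called without library 1 of 72 h (0.10, adjusted p = 0.56), and it was also lost without library 1 or 2 of 24 h, in the fit to only the 2 groups and with limma-voom.

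The antigen receptor machinery rose as a group. Of 21 genes of the T cell receptor complex and its coreceptors, 18 rose and 0 fell, with a median of 0.53. Cd3g, a signalling chain of the complex, went from 143, 141 and 142 CPM to 228, 263 and 269 (0.83 ± 0.07), and Trac, the constant part of the alpha chain, from 219, 235 and 220 to 360, 429 and 433 (0.86 ± 0.08). Themis, an adaptor of receptor signalling, rose by 1.29 ± 0.11, and Ptpn22, a phosphatase that restrains it, by 1.48 ± 0.14. The lineage markers moved unequally. Cd8b1 went from 214, 250 and 252 CPM to 420, 522 and 564 (1.07 ± 0.11), Cd8a rose by 0.40 ± 0.13, and Cd4 at 180, 166 and 162 then 110, 163 and 167 CPM did not pass (adjusted p = 0.58). The Cd8a call was lost without library 1 of 24 h (0.35, adjusted p = 0.058) or without library 3 of 72 h (0.33, adjusted p = 0.064).

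Costimulatory and inhibitory receptors went both ways. Of 14 costimulatory genes 7 fell and 4 rose. Tnfrsf4, which encodes OX40, went from 48.4, 50.6 and 44.8 CPM to 12.6, 15.4 and 9.69 (-1.93 ± 0.18), and Icos, a CD28 relative, from 194, 204 and 194 to 87.6, 109 and 104 (-0.97 ± 0.12). Cd27, kept by resting and memory cells, moved the other way, from 97.2, 84.5 and 100 CPM to 177, 222 and 235 (1.17 ± 0.13). Cd28 itself (ENSMUSG00000026012.2, chromosome 1, 60716800 to 60773359, GRCm38) was at 356, 374 and 365 CPM at 24 h and at 468, 594 and 574 at 72 h, a log2 change of 0.58 ± 0.14 (adjusted p = 0.0020). The 2 sets of Cd28 values did not overlap. Gene counts do not read the altered codon, so they give no check of the genotype. Of 16 inhibitory receptor and ligand genes 5 rose and 5 fell. Cd274 and Pdcd1lg2, the ligands of PD-1, fell by 2.07 ± 0.20 and 2.92 ± 0.35 on the log2 scale, Cd200 by 2.26 ± 0.30, and Lair1, a collagen receptor, rose by 1.27 ± 0.16. Pdcd1, encoding PD-1, was called with all libraries (-0.71, adjusted p = 0.032). It was not called without library 1 or 2 of 72 h (-0.54, adjusted p = 0.13, and -0.62, adjusted p = 0.11), without library 1 or 3 of 24 h (-0.55, adjusted p = 0.15, and -0.63, adjusted p = 0.096) or in the fit to only the 2 groups (adjusted p = 0.10).

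Genes of naive and resting T cells rose as a list in libraries 2 and 3 of 72 h and not in library 1. Against the 24 h mean, the list median was -0.05 in library 1, 0.72 in library 2 and 0.74 in library 3. Of 24 such genes 13 rose and 2 fell, with a median of 0.49, and 16 rose and 1 fell, with a median of 0.72, when library 1 was left out. Tcf7, which encodes the memory and naive cell factor TCF-1, was at 437, 456 and 449 CPM at 24 h and at 705, 1184 and 1230 at 72 h (1.22 ± 0.19). Tob1, an antiproliferative gene, rose by 1.10 ± 0.15, Rasa3, which restrains Rap1 and Ras, by 1.14 ± 0.17, and the membrane protein gene Ms4a4b by 0.79 ± 0.11. Library 1 was below both other 72 h libraries in 24 of 24 members. For Il7r, the receptor for the survival cytokine IL-7, it stood at 96.6 CPM beside 364 and 349, and at 24 h the gene was at 184, 198 and 276. Il7r passed only without library 1 (0.70, adjusted p = 0.028). Of 23 homing and adhesion genes 10 rose and 3 fell. Selplg, a selectin ligand, rose by 1.03 ± 0.11, S1pr4 by 1.32 ± 0.19 and the chemokine receptor gene Cxcr3 by 1.87 ± 0.25, from 14.3, 16.2 and 24.3 CPM to 77.0, 55.9 and 67.3. Ccr4, another chemokine receptor gene, fell by 2.02 ± 0.20.

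Effector programmes were mixed. Of 21 effector and memory transcription factor genes 8 rose and 6 fell. Runx3, a factor of CD8 and cytotoxic cells, went from 94.4, 99.0 and 109 CPM to 226, 214 and 234 (1.15 ± 0.08), Gata3 rose by 1.09 ± 0.13, and Tox fell by 1.18 ± 0.15. Of 14 cytotoxic genes 6 rose and 0 fell. Gzma, granzyme A, went from 1.84, 0.861 and 1.06 CPM to 45.6, 23.0 and 26.7 (4.64 ± 0.55, adjusted p = 2.4e-07). Nkg7, a granule protein gene, rose by 1.37 ± 0.26, Ctsw by 0.74 ± 0.18 and Lamp1, a lysosomal membrane protein gene, by 0.42 ± 0.06. Gzmb, granzyme B, did not pass (0.62 ± 0.52, adjusted p = 0.37). Its 24 h values were 114, 126 and 357 CPM and its 72 h values 620, 134 and 164, so the days overlapped and library 1 was the highest. In the regulatory T cell list 8 of 14 genes fell and 1 rose. Foxp3, the lineage factor, went from 22.4, 15.5 and 19.9 CPM to 6.25, 6.91 and 5.95, Ikzf4 fell by 1.66 ± 0.13, and Gpr83 by 3.42 ± 0.37. Ctla4 was the member that rose (1.37 ± 0.35).

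**Figure D1:**
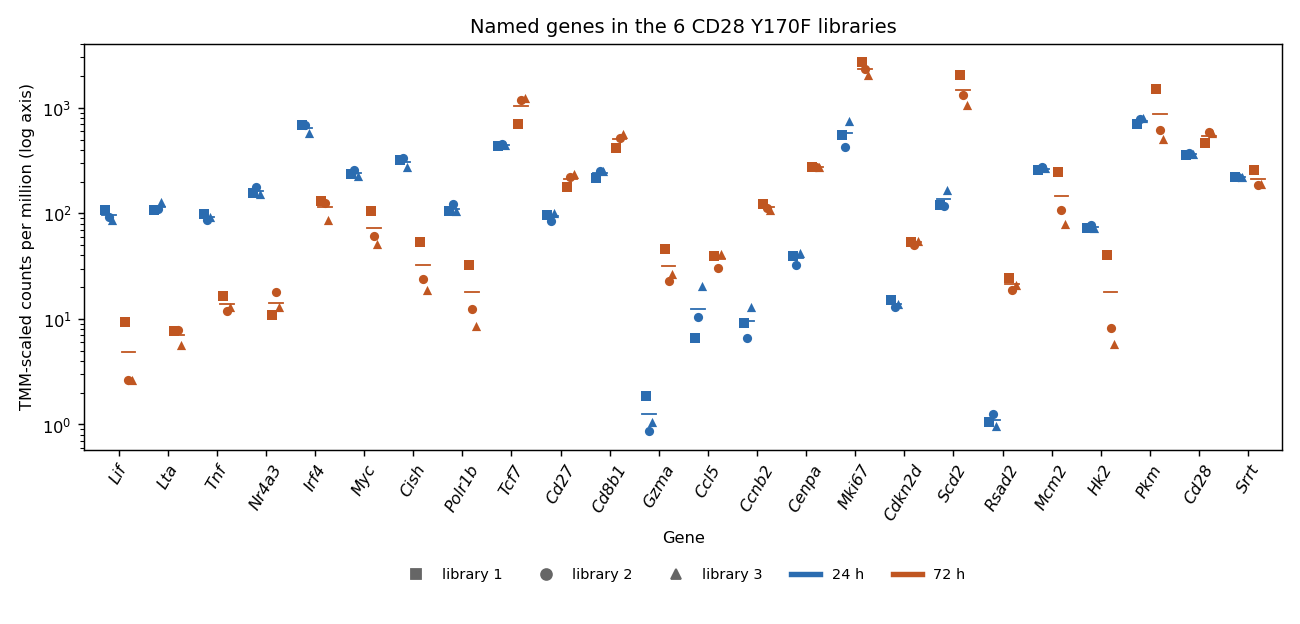
Level of 24 genes in each CD28 Y170F library, in CPM on a log axis. Blue marks are 24 h and orange marks 72 h, squares, circles and triangles are libraries 1, 2 and 3, and short lines are means of 3 libraries; Lif, Lta and Cish drop in every 72 h library, Ccnb2 and Cenpa rise in every one, and for Hk2, Pkm and Tcf7 the square of 72 h lies apart from the other 2 marks.

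Mitotic genes rose without exception. All 30 of the 30 mitosis and chromosome segregation genes passed as higher at 72 h, with a median log2 change of 1.86, also when any 1 of the 6 libraries was left out. Ccnb2 (ENSMUSG00000032218.6, chromosome 9, 70407692 to 70421547, GRCm38), encoding cyclin B2, went from 9.14, 6.59 and 13.1 CPM to 122, 113 and 108, a log2 change of 3.57 ± 0.26 (adjusted p = 1.8e-10). Cenpa, the centromeric histone, went from 39.4, 32.3 and 42.0 CPM to 274, 276 and 272 (2.85 ± 0.17). The 3 libraries of 72 h lay close together for both genes, library 1 included. Cenpe, a kinetochore motor, rose by 2.44 ± 0.23 and Foxm1, a transcription factor of mitotic genes, by 1.87 ± 0.19. Further genes of the division machinery were among the largest rises: Pimreg (3.80 ± 0.24), Pif1, a helicase gene (3.54 ± 0.31), Depdc1b (3.27 ± 0.27), Gas2l3 (3.21 ± 0.23) and the spindle gene Aspm (2.86 ± 0.29).

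Many promoters of the mitotic genes held the same motifs, which were chosen after the values were seen. Promoters were the RefSeq windows on GRCm38.p6 from 250 bases before to 50 after each gene's start, searched on both strands, and 529 list genes were matched by symbol. Of 25 matched mitotic genes, 19 (76.0%) held TTTGAA, the core of the cell cycle element CHR, against 15% of the promoters of all tested genes and 20.2% of all genes in the table. CCAAT, the binding motif of NF-Y, was in 19 of 25 as well, against 42.4% of tested genes. Shown here are the 120 bases before the start of the 2 members that had the smallest p among those with TTTGAA in that stretch. They are Cdc20 (chr4:118437344-118437463, minus strand), the activator of the anaphase-promoting complex, and Kif2c (chr4:117178773-117178892, minus strand), a microtubule-depolymerising kinesin. Capitals mark TTTGAA or its reverse complement TTCAAA, and CCAAT.
Cdc20: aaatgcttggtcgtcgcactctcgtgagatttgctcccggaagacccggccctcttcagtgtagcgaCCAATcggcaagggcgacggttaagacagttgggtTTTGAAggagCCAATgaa
Kif2c: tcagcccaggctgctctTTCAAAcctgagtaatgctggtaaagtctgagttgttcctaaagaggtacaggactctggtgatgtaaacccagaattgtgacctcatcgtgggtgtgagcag
Cdc20 stood at 25.9, 18.9 and 33.6 CPM at 24 h and at 143, 108 and 99.2 at 72 h. Kif2c went from 14.3, 11.7 and 22.3 CPM to 107, 76.6 and 73.8. A match is a description of letters and shows no binding.

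Histone genes and brakes on the cycle rose as well, whereas replication genes did not rise together. All but 1 of the 22 replication-dependent histone genes, 21 in number, rose and none fell, with a median of 1.67. Hist1h2bf had the largest rise among the genes named by size, from 7.12, 3.19 and 6.75 CPM to 129, 88.9 and 75.4 (4.09 ± 0.23, adjusted p = 5.9e-12), and the linker histone gene Hist1h1b rose by 2.25 ± 0.23. Single histone genes are uncertain, since near-identical copies share reads. Of 16 CDK inhibitor and G1 genes 9 rose and 2 fell, with 4 lower without library 1. Cdkn2d, encoding the inhibitor p19, went from 15.1, 13.0 and 13.9 CPM to 53.5, 50.6 and 55.1 (1.92 ± 0.10), Cdkn2c, encoding p18, rose by 2.35 ± 0.19 and Ccng2 by 2.25 ± 0.25. Ccnd2, cyclin D2, fell from 1266, 1333 and 1196 CPM to 475, 355 and 313 (-1.73 ± 0.12).

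The S phase list turned on library 1. Of 30 DNA replication genes 2 rose and 4 fell with all libraries, and 1 rose and 15 fell when library 1 was left out, with medians of -0.11 and -0.51. With library 3 of 72 h left out in its place, 4 rose and 1 fell. Library 1 lay above both other 72 h libraries in 30 of 30 members. Mcm2, a subunit of the replicative helicase, was at 256, 273 and 269 CPM at 24 h and at 248, 108 and 78.8 at 72 h, log2 changes of -0.87 ± 0.25 with library 1 and -1.51 without. The Mcm2 call was lost without library 2 or 3 of 72 h (-0.70, adjusted p = 0.050, and -0.58, adjusted p = 0.057) and in the fit to only the 2 groups (adjusted p = 0.12). E2f2, a transcription factor of the cell cycle, rose either way (2.25 ± 0.19), from 48.5, 43.7 and 50.6 CPM to 285, 205 and 189. Rrm2, a subunit of ribonucleotide reductase, was called with all libraries (0.73, adjusted p = 0.017). It was not called without library 1 of 72 h (0.49, adjusted p = 0.12) or without library 1 or 2 of 24 h (0.67, adjusted p = 0.063, and 0.65, adjusted p = 0.074). Dctd, a deaminase of the nucleotide pool, fell from 22.4, 22.0 and 20.7 CPM to 7.75, 2.06 and 1.84. TTTGGCGC, the motif searched for this list, was in 6 of 24 matched promoters (25.0%), against 1.1% of tested genes. CCAAT was in 16 of these 24 (66.7%), against 42.4% of tested genes.

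Transcripts for making ribosomes fell. Of 30 ribosome biogenesis genes 28 fell and 0 rose, with a median of -1.47, and without library 1 29 fell and 1 rose, with a median of -1.80. Polr1b (ENSMUSG00000027395.15, chromosome 2, 129100995 to 129126594, GRCm38), a subunit of RNA polymerase I, went from 106, 123 and 105 CPM to 32.5, 12.5 and 8.60, a log2 change of -2.63 ± 0.31 (adjusted p = 1.8e-07). Library 1 lay between the 24 h libraries and libraries 2 and 3, and without it the change was -3.40. Utp20, Tsr1 and Bysl, factors of ribosomal subunit assembly, had log2 changes of -1.73 ± 0.21, -1.55 ± 0.19 and -1.52 ± 0.18. Srm, spermidine synthase, fell from 85.4, 97.1 and 97.7 CPM to 32.9, 8.10 and 4.58. Of 23 translation initiation and tRNA synthetase genes 15 fell and 0 rose, with a count of 21 lower without library 1, 9 without library 2 of 72 h and 8 without library 3. Eif2b3 fell by 1.52 ± 0.21 and Eif4e, the cap-binding translation factor, by 0.91 ± 0.18 on the log2 scale.

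The E-box CACGTG, the motif bound by MYC and related factors, was in 7 of 24 matched ribosome biogenesis promoters (29.2%), against 11.2% of tested genes and 8.1% of all genes in the table. Nop2, a ribosomal RNA methyltransferase gene, was the only eligible member that held it in the 120 bases before the start (chr6:125131763-125131882, plus strand, GRCm38.p6, CACGTG in capitals).
Nop2: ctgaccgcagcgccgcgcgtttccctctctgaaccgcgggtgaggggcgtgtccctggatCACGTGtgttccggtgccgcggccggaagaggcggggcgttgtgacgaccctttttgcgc
Nop2 stood at 116, 124 and 127 CPM at 24 h and at 50.0, 25.9 and 20.3 at 72 h.

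Glucose metabolism had no common direction across the 72 h libraries. Of 23 glycolysis and lactate genes 6 rose and 3 fell (median 0.24), and without library 1 3 rose and 8 fell (median -0.29). Leaving out library 2 or 3 of 72 h gave 9 and 2, or 8 and 1. Hk2, hexokinase 2, which commits glucose to the pathway, was at 73.1, 77.4 and 72.4 CPM at 24 h and at 40.1, 8.28 and 5.76 at 72 h, log2 changes of -2.04 ± 0.49 with library 1 and -3.40 without. Eno1, an enolase, was at 808, 795 and 829 CPM and then at 1524, 450 and 378, so library 1 was above and libraries 2 and 3 below every 24 h library. It passed only without library 1 (-0.97, adjusted p = 9.3e-04). Tpi1, triosephosphate isomerase, was at 127, 141 and 159 CPM and then at 390, 80.2 and 62.2, and turned from 0.32 (adjusted p = 0.60) to -1.0 (adjusted p = 0.014). Slc2a3, a glucose transporter gene, rose in both fits (0.99 and 0.95), as did Pdk1, a kinase that closes entry to the citrate cycle (0.99 and 1.12), and Aldoc (2.52 and 2.31). Ldha, lactate dehydrogenase A, at 672, 723 and 726 CPM and then 1203, 455 and 404, passed only without library 1 (-0.72, adjusted p = 0.0050).

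Pkm (ENSMUSG00000032294.16, chromosome 9, 59656368 to 59679375, GRCm38), which encodes the pyruvate kinase named in the title, followed that pattern. It was at 700, 779 and 794 CPM at 24 h and at 1503, 613 and 505 at 72 h. Library 1 was above, and libraries 2 and 3 were below, every 24 h library. The log2 change of 0.21 ± 0.26 did not pass (adjusted p = 0.56), nor did -0.44 without library 1 (adjusted p = 0.070). Gene counts do not separate the splice forms of Pkm.

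Genes induced by low oxygen partly followed library 1. Of 18 hypoxia genes 9 rose and 1 fell, and without library 1 7 rose and 3 fell. Slc16a3, a lactate exporter gene, stood at 5.45, 3.14 and 6.09 CPM at 24 h and at 49, 8.38 and 9.69 at 72 h, with a log2 change of 2.19 ± 0.51 that did not pass without library 1 (0.88, adjusted p = 0.091). The same held for Bnip3, a mitophagy gene, at 5.75, 5.98 and 5.21 CPM and then 49.8, 8.88 and 8.51, whose call was also lost with limma-voom (1.48, adjusted p = 0.075) and in the fit to only the 2 groups (adjusted p = 0.063). Ddit4, an inhibitor of mTOR, rose either way, from 14.1, 7.70 and 11.4 CPM to 55.4, 33.1 and 41.8 (1.97 ± 0.23), and Car12, a carbonic anhydrase gene, fell by 2.94 ± 0.35. The core of the hypoxia response element, ACGTG, was in 14 of 22 matched glycolysis promoters (63.6%), against 28.5% of tested genes, a count that includes matches within CACGTG. It is shown in capitals, or as its reverse complement CACGT, for the 2 members with the smallest p that hold it in the 120 bases before the start, Slc16a3 (chr11:120948947-120949066, plus strand, GRCm38.p6) and Hk2 (chr6:82774455-82774574, minus strand), which moved in opposite directions.
Slc16a3: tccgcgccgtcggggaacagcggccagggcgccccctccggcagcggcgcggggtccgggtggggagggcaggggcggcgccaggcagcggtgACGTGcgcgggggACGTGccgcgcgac
Hk2: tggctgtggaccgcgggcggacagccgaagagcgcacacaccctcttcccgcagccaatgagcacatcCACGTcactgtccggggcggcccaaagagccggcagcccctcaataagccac

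Other metabolic lists divided into those that library 1 changed and those that it did not. Of 32 respiratory chain genes 7 rose and 2 fell. Without library 1, 4 rose and 11 fell, and without library 2 or 3 of 72 h 0 fell. Cox4i1, a subunit of cytochrome oxidase, rose in both fits (0.55 and 0.47). Of 21 citrate cycle genes 3 rose and 4 fell, with 10 lower without library 1. Idh1, the cytosolic isocitrate dehydrogenase gene of that list, rose from 3.78, 2.84 and 3.31 CPM to 22.6, 18.4 and 19.4 (2.60 ± 0.22). The ATF4, amino acid and one-carbon list had 6 of 23 genes higher and 4 lower, 4 and 12 without library 1, and 6 and 2 without library 2 or 3 of 72 h. Trib3, a target of ATF4, rose by 2.23 ± 0.27 while Shmt1, a serine hydroxymethyltransferase gene, fell by 1.99 ± 0.27. Of 31 proteasome genes 4 rose and 8 fell, with 22 lower without library 1 and 3 or 2 without library 2 or 3 of 72 h.

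Lipid synthesis genes rose with and without library 1. Of 28 cholesterol and fatty acid synthesis genes 23 rose and 1 fell, and without library 1 21 rose and 2 fell. Scd2, a stearoyl-CoA desaturase gene, was at 120, 119 and 167 CPM at 24 h and at 2028, 1325 and 1071 at 72 h (3.44 ± 0.39, adjusted p = 1.4e-07), and Scd1 rose by 3.34 ± 0.79. Srebf2, the transcription factor of the cholesterol pathway, rose by 0.72 ± 0.09, Mvd by 1.23 ± 0.15 and Elovl6, a fatty acid elongase gene, by 1.19 ± 0.13. CCAAT was in 16 of 18 matched promoters of this list (88.9%), a larger share than the 76.0% of mitotic promoters. That motif was therefore not particular to the mitotic list. TCACCCCAC, the motif searched for the lipid list, was in 1 of 18 (5.6%), against 0.6% of tested genes. Of 19 autophagy and lysosome genes 16 rose and 0 fell, among them Atg9a (1.10 ± 0.10), Gabarapl2 (0.64 ± 0.08) and the lysosomal protease gene Ctsd (0.97 ± 0.13). Of 13 mitochondrially encoded mRNAs 4 rose and 0 fell, led by mt-Co1 (0.66 ± 0.07). That count ranged from 1 to 5 as single libraries were left out.

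**Figure D2:**
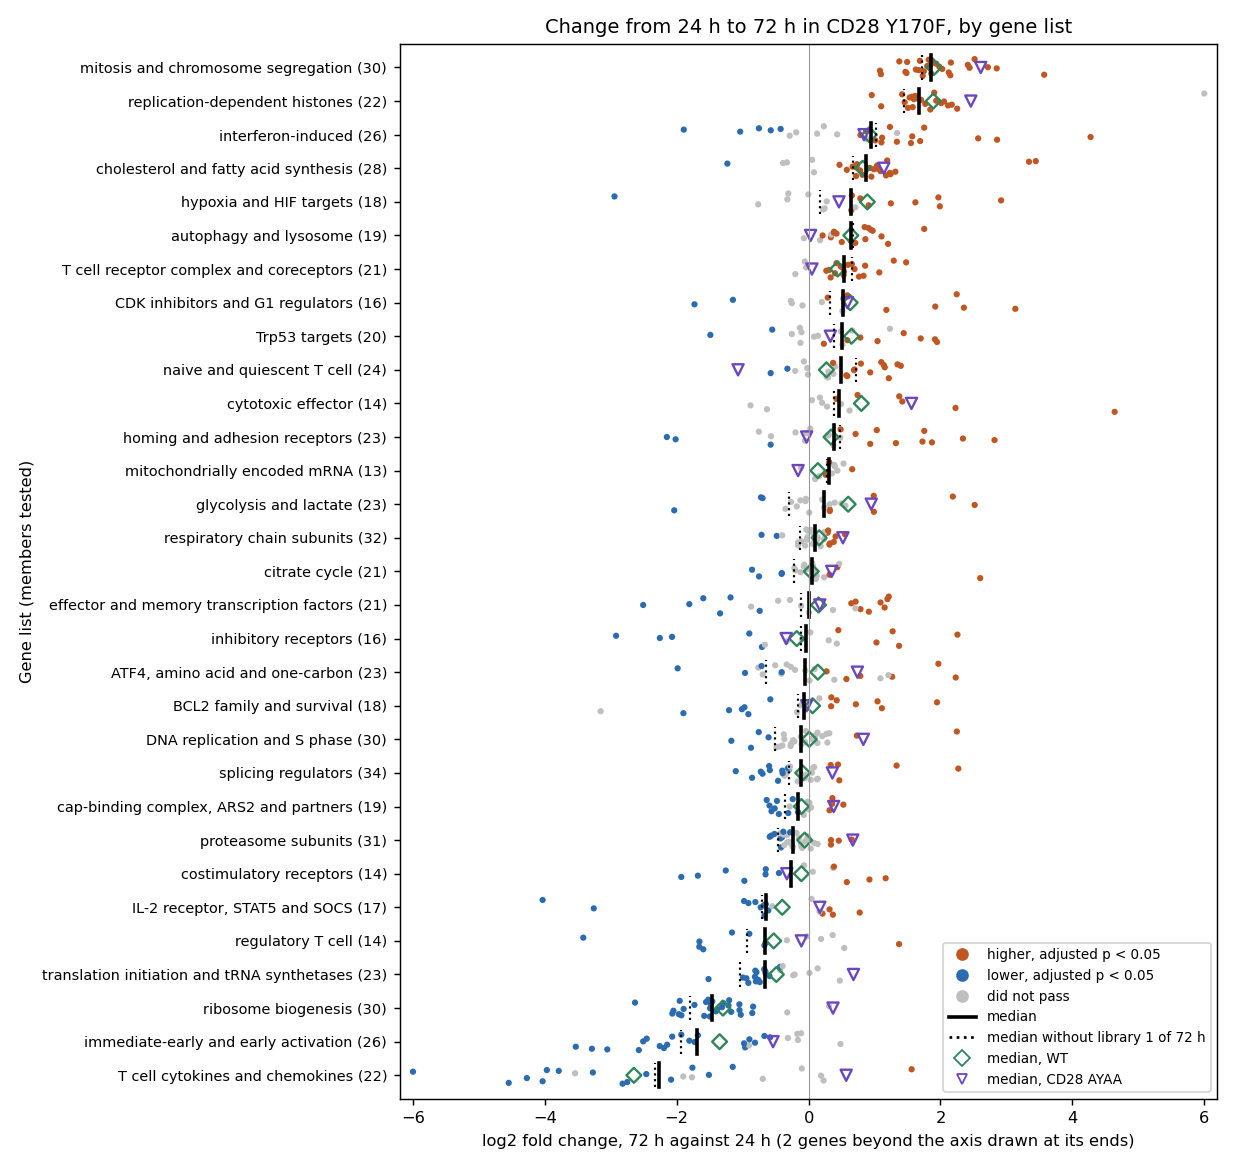
Log2 change from 24 h to 72 h in CD28 Y170F for the members of 31 gene lists. Points are genes, coloured by whether they passed higher, lower or not at all, black bars are list medians, dotted bars the medians without library 1 of 72 h, green diamonds the WT medians and purple triangles the CD28 AYAA medians; mitosis lies at a median of 1.86 and ribosome biogenesis at -1.47, and 2 genes beyond the axis are drawn at its ends.

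Interferon and survival genes changed in both directions. Of 26 interferon-induced genes 14 rose and 5 fell, with a median of 0.95. Rsad2, the antiviral protein viperin and a gene chosen after its values were seen, went from 1.05, 1.27 and 0.971 CPM to 24.3, 18.8 and 20.7 (4.28 ± 0.64). Irf7, a transcription factor of the interferon response, rose by 1.57 ± 0.22, Ifit2 by 1.10 ± 0.13, Rtp4 by 1.75 ± 0.25, and Cmpk2, named for its size, by 3.22 ± 0.31. Gbp5, a guanylate-binding protein gene that interferon gamma induces, fell from 361, 416 and 324 CPM to 104, 116 and 76.5 (-1.89 ± 0.16). Of 20 p53 target genes 8 rose and 2 fell, with 4 lower without library 1. Sesn1 rose by 1.70 ± 0.19 and the death receptor gene Fas by 1.44 ± 0.18, while Aen, a nuclease gene, fell by 1.49 ± 0.13. Of 18 BCL2 family and survival genes 7 rose and 6 fell, with 4 higher without library 2 of 72 h. Bcl2l1, encoding the survival factor BCL-xL, went from 122, 135 and 111 CPM to 40.2, 34.7 and 23.8 (-1.90 ± 0.22). Bcl2a1b fell by 1.21 ± 0.19, and the pro-death genes Bbc3 and Bcl2l11 rose by 1.95 ± 0.28 and 1.11 ± 0.17.

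Among the remaining genes with the largest rises were Neurl1b (3.40 ± 0.29), Rap1gap2, which switches off Rap1 (3.32 ± 0.36), the kinase gene Pak6 (3.28 ± 0.34), Fgl2 (3.20 ± 0.43) and the noncoding RNA Lockd (3.14 ± 0.27). Each had 72 h values above all of its 24 h values. Ighm, the B cell marker named above, was at 270, 245 and 218 CPM at 24 h and at 755, 942 and 875 at 72 h (1.81 ± 0.25), whereas the other 12 B cell markers did not pass.

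Genes of the cap-binding complex and its partners changed by small amounts. Of 19 tested genes 4 rose and 9 fell, with log2 changes from -0.64 to 0.53 and a median of -0.16, or -0.36 without library 1. The count of lower genes ranged from 5 without library 3 of 72 h to 11 without library 1. Srrt (ENSMUSG00000037364.11, chromosome 5, 137295704 to 137307674, GRCm38), which encodes ARS2, was at 219, 220 and 223 CPM at 24 h and at 255, 185 and 190 at 72 h. Library 1 was above and libraries 2 and 3 below the 24 h values, and the log2 change was -0.07 ± 0.21 (adjusted p = 0.82). Zcchc8, a subunit of the nuclear exosome targeting complex, rose by 0.53 ± 0.08. Thoc5, of the THO export complex, fell by 0.59 ± 0.11, Drosha, the microRNA-processing nuclease, by 0.64 ± 0.13 and Zc3h18, an ARS2 partner, by 0.56 ± 0.12. Of 34 splicing regulators 5 rose and 11 fell, with 19 lower without library 1. Celf2 went from 250, 263 and 274 CPM to 562, 683 and 738 (1.33 ± 0.09), Nek2, a kinase also known from mitosis, rose by 2.27 ± 0.22, and the SR protein genes Srsf6 and Srsf7 fell by 0.73 ± 0.10 and 1.10 ± 0.18.

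Library 1 of 72 h carried more RNA of growth and glucose-use genes and less of resting-cell genes than libraries 2 and 3. These values describe 1 library and have no test. It was more than 2-fold above the mean of the other 2 at 346 of 9325 genes (3.71%) and more than 2-fold below at 144 (1.54%), and it lay above both at 53.0% of genes. In CD28 AYAA at 72 h, library 1 was that far from its group at 26 genes (0.279%). Other groups of the series, named above, held pairs of libraries that were further apart than those of CD28 AYAA. The genes furthest above were Tpi1, Bnip3, Hk2 and Slc16a3, by 2.46, 2.45, 2.45 and 2.38 on the log2 scale, then Galk1, a galactokinase gene (2.34), Nefh (2.18), Ifrd2 (2.18) and the fatty acid-binding protein gene Fabp5 (2.17). Furthest below were Patj (-1.95), Il7r (-1.88), the amino acid transporter gene Slc6a19 (-1.81), Bambi-ps1 (-1.76), Rnu3a (-1.71), Tdrp (-1.70), Tbc1d30 (-1.69) and Apol7e (-1.65).

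By list, the median of library 1 minus the other 2 was 1.14 for glycolysis, where 21 of 23 genes were above both, and 1.05 for translation, where 23 of 23 were. It was 0.95 for S phase, 0.86 for ribosome biogenesis and 0.39 for mitosis, where 29 of 30 were above both, and -0.67 for naive genes. Set against the 24 h mean, the glycolysis median was 0.77 in library 1 and -0.29 for libraries 2 and 3, and the S phase medians were 0.42 and -0.51. The ribosome biogenesis medians were -0.91 and -1.78, so library 1 had moved in the same direction as the others and less far. The naive medians were -0.05 and 0.73.

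The same genes separated the 2 WT libraries. WT number 1 minus number 4 at 72 h correlated with library 1 minus libraries 2 and 3 across 9325 genes (Pearson's r = 0.70, Spearman's rho = 0.76), a description over genes that share libraries and are not independent. Of the 346 genes above, 337 were also higher in WT number 1, and of the 144 below, 137 were lower. Bnip3, for instance, stood at 91.6 CPM in WT number 1 and 12.6 in number 4, and Hk2 at 63.0 and 13.6. At 24 h the WT difference gave r = 0.55 and rho = 0.65. WT numbers 1 and 4 also differ in depth, at 25.2 and 10.1 M counts at 72 h. In CD28 AYAA, library 1 minus the other 2 gave r = -0.20 and rho = -0.33, and 43 of the 346 were above. What sets number 1 apart was not tested, and the labels give no batch.

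**Figure D3:**
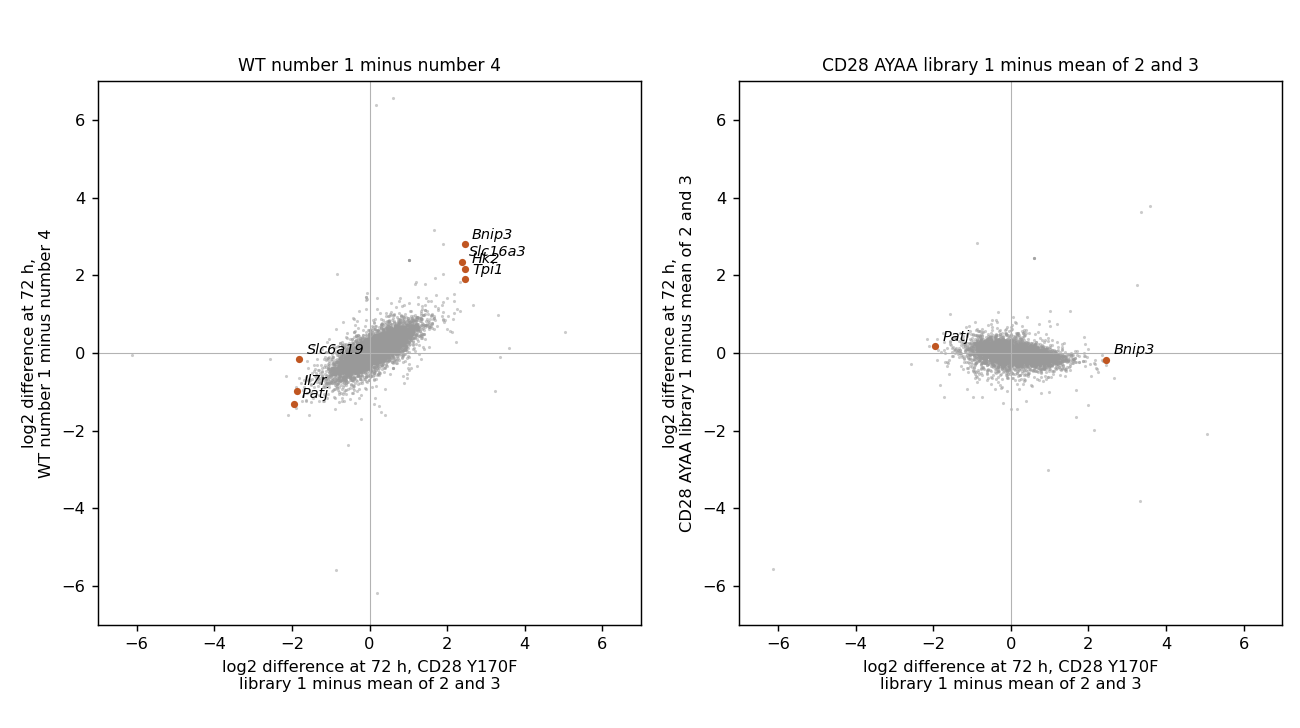
Log2 difference of library 1 of CD28 Y170F at 72 h from the mean of libraries 2 and 3 (horizontal axis), for 9325 genes. The vertical axis is the log2 difference of WT number 1 from number 4 at 72 h (left) or of CD28 AYAA library 1 from its libraries 2 and 3 (right); the points rise along the left diagonal (r = 0.70) and do not on the right (r = -0.20).

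Whether the change over time depended on the Y170F allele was asked by testing the difference of the 72 h minus 24 h changes between genotypes. Against WT, nearly all changed genes moved in the same direction, and edgeR called 0 genes (0.0%) as different. At an unadjusted p under 0.05 there were 423 of 18292 genes (2.31%). Without library 1 of CD28 Y170F at 72 h, 0 genes passed adjustment and 2151 of 18284 tested the unadjusted threshold. That unadjusted share was larger than the one with library 1. DESeq2 called 5 genes and limma-voom 0, with 361 and 386 at an unadjusted p under 0.05. The 5, named here because they are so few, are Rnu3b1 to Rnu3b4, small nucleolar RNA genes with identical values in these libraries, and the predicted gene Gm4294, each at 0 CPM in at least 2 WT libraries. In WT itself 5393 genes (29.5%) passed between 24 h and 72 h, 2834 (15.5%) higher and 2559 (14.0%) lower. Across 9325 genes the changes of the 2 genotypes correlated at r = 0.95. Of 5014 such genes called in CD28 Y170F, 4991 (99.5%) had the same sign in WT. With 2 WT libraries per day that differ from each other, a missed threshold does not show equal changes.

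Single genes show the likeness and its limits. Ccnb2 rose by 3.57 in CD28 Y170F and by 3.39 in WT, a difference of 0.18 ± 0.39. Lta fell by 4.03 and 3.56 on the log2 scale, a difference of -0.48 ± 0.51. Cish, with changes of -3.26 and -2.12, had a difference of -1.14 ± 0.44 and an unadjusted p of 0.016 that did not survive adjustment (adjusted p = 1). Pkm had changes of 0.21 and 0.76 (difference -0.56 ± 0.41), Srrt of -0.07 and 0.06 (-0.13 ± 0.33) and Cd28 of 0.58 and 0.41 (0.17 ± 0.23). With all libraries, list medians were 1.86 in CD28 Y170F and 1.90 in WT for mitosis and -1.47 and -1.30 for ribosome biogenesis. They were -2.27 and -2.65 for cytokines, 0.49 and 0.27 for naive genes, and 0.24 and 0.60 for glycolysis. Without library 1 of 72 h, the CD28 Y170F medians were 1.72 for mitosis, -1.80 for ribosome biogenesis and -2.33 for cytokines. Those for naive genes and glycolysis were then 0.72 and -0.29, further from WT than with it.

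Against CD28 AYAA, whose altered proline motif lies in the same tail, the change over time differed widely. The difference passed for 6679 of 18292 genes (36.5%), 3392 (18.5%) with a higher and 3287 (18.0%) with a lower change in CD28 Y170F. In CD28 AYAA itself 8300 genes (45.4%) passed between the days, 3972 (21.7%) higher and 4328 (23.7%) lower. Across 9325 genes the changes of the 2 genotypes correlated at r = 0.29, and 2749 of the 5014 called genes (54.8%) had the same sign. All 30 mitotic genes rose in both genotypes, with medians of 1.86 in CD28 Y170F and 2.61 in CD28 AYAA. The change was smaller in CD28 Y170F for 13 of the 30 and larger for 1. Ribosome biogenesis went apart, with medians of -1.47 and 0.37 and a lower change for 29 of 30 genes. The difference was also lower for 27 of 30 S phase genes, 29 of 31 proteasome genes, 20 of 23 translation genes and 14 of 22 cytokine genes, and higher for 24 of 24 naive genes and 14 of 21 T cell receptor genes.

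The genes with the largest such differences moved in opposite directions in most cases. Lif, which fell in CD28 Y170F, was at 25.4, 23.9 and 28.9 CPM in CD28 AYAA at 24 h and at 165, 160 and 161 at 72 h, and the log2 changes differed by -6.91 ± 0.82 (adjusted p = 2.0e-06). Lta differed by -5.71 ± 0.47, with 24.8, 29.7 and 30.9 CPM and then 86.2, 106 and 81.3 in CD28 AYAA. Cish (-4.21 ± 0.41) and Lrrc32, a carrier of latent TGF-beta (-4.52 ± 0.42), likewise fell in CD28 Y170F and rose in CD28 AYAA. Srm differed by -3.57 ± 0.58, and its change within CD28 AYAA did not pass (0.96, adjusted p = 0.053). Gzmb differed by -3.63 ± 0.76, since its log2 change in CD28 AYAA was 4.25. In the other direction, Myb, a transcription factor of progenitors and memory cells, went from 46.2, 43.8 and 45.7 CPM to 124, 213 and 190 in CD28 Y170F and from 119, 123 and 96.8 to 58.6, 57.5 and 57.5 in CD28 AYAA, a difference of 2.92 ± 0.25. Mxd4, an antagonist of MYC (3.33 ± 0.48), Klhl24 (3.02 ± 0.46), Trp53inp1 (2.86 ± 0.32) and the pseudogene Bambi-ps1 (3.96 ± 0.53) did the same. The small nucleolar RNA Rnu3a differed by 4.72 ± 1.45, though its change within CD28 Y170F did not pass (1.87, adjusted p = 0.14).

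Cd28, Pkm and Srrt took unequal parts in this. Cd28 was at 534, 474 and 467 CPM in CD28 AYAA at 24 h and at 323, 318 and 283 at 72 h, so it fell there by 0.68 on the log2 scale and rose by 0.58 in CD28 Y170F, a difference of 1.25 ± 0.20 (adjusted p = 5.1e-05). Pkm went from 498, 522 and 502 CPM to 1035, 1073 and 1120 in CD28 AYAA, and its difference of -0.88 ± 0.37 did not pass (adjusted p = 0.062). The Pkm difference passed without library 1 of CD28 Y170F at 72 h (-1.52, adjusted p = 3.5e-05), with the replicate number as a block (-1.06, adjusted p = 0.015), without a filter on low counts (-0.93, adjusted p = 0.0065), in DESeq2 (-0.90, adjusted p = 0.039) and in limma-voom (-1.05, adjusted p = 0.024). For Srrt the difference of -0.50 ± 0.29 did not pass (adjusted p = 0.19). It passed with the replicate block (-0.52, adjusted p = 0.0088) and in a fit to only the groups compared (-0.52, adjusted p = 0.015).

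**Figure D4:**
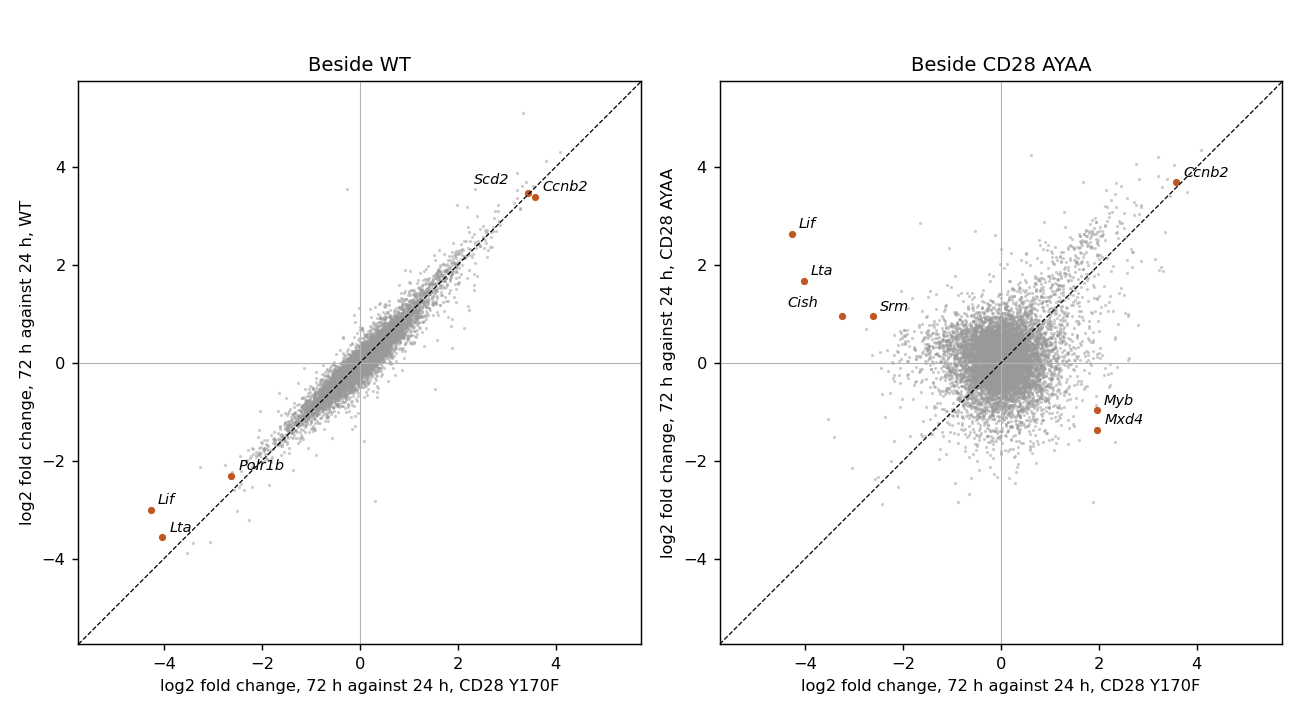
Log2 change from 24 h to 72 h in CD28 Y170F (horizontal axis) against that in WT (left) and in CD28 AYAA (right), 1 point per gene for 9325 genes. The WT points follow the diagonal (r = 0.95), while the CD28 AYAA points spread over all quadrants (r = 0.29).

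**Figure D5:**
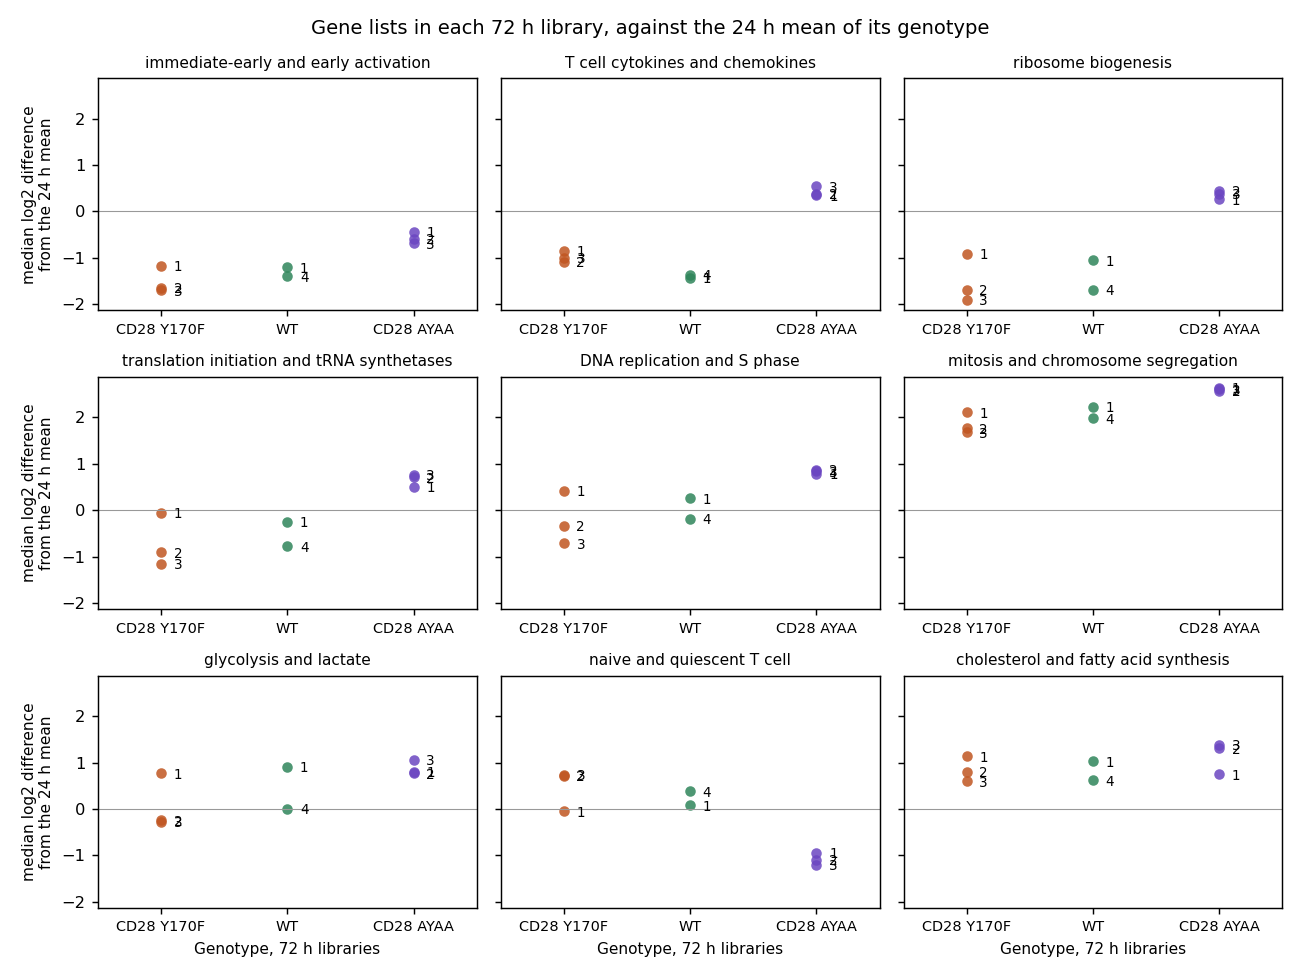
Median log2 difference of each 72 h library from the 24 h mean of its own genotype, for 9 gene lists in CD28 Y170F, WT and CD28 AYAA, with the number of the library as the mark. Ribosome biogenesis lies at -0.91, -1.69 and -1.90 in the 3 CD28 Y170F libraries, at -1.05 and -1.69 in WT and at 0.26 to 0.45 in CD28 AYAA.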

How the data were processed

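The authors deposited 1 table of expected counts per gene with a column for each of the 34 libraries, and 0 columns were left unused. The submitters' processing notes name the tools limma, RSEM, STAR, FastQC and bcl2fastq 2.20 and the builds GRCm38 and mm10, and the annotation and strand setting are not given in the sources used here. Reads of near-identical or overlapping genes may be split between them. Symbols and coordinates came from GENCODE M21 (99.2% of identifiers matched), and promoters from RefSeq (GRCm38.p6).

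After rounding, the 34 libraries entered 1 edgeR 4.0.16 model (R 4.3.3) of group means with TMM scaling, the default filter on low counts and quasi-likelihood F tests. A call is a Benjamini-Hochberg adjusted p under 0.05 over the 18292 genes tested, and every adjusted p in the text is of this kind unless DESeq2 or limma is named. The biological coefficient of variation was 0.16, and tested genes held at least 99.94% of each library's counts. A standard error is the log2 fold change divided by the square root of F. CPM values and marker sums use TMM library sizes, and Xist levels total counts. Differences of single libraries use log2(CPM + 0.5). DESeq2 1.42.0 and limma 3.58.1 served as alternatives, with RLE size factors, no filter, a replicate block, only the groups compared, and each library left out in turn. The edgeR fit of the change over time was run on simulated counts with known changes at some genes and no outlying library. The differences between genotypes and the other tools were not simulated. Figures were drawn with matplotlib 3.10.9 in Python 3.11.15.

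Members and the 40 gene lists (713 genes, 704 tested, 9 of the lists cell markers) were chosen with earlier results of these data known. Srrt, Cd28 and Pkm were always named. Other genes were named as the 15 largest changes per direction whose days did not overlap, the 6 largest differences between genotypes and the 8 largest differences of library 1 (libraries 2 and 3 within 0.5), each with a mean log2 CPM not under 3, and up to 4 members with the smallest p per list. The first 3 rankings leave out predicted, mitochondrial, ribosomal protein, antigen receptor segment and sex-linked marker genes. Myc, Cd69, Ifng, Ccl5, Il2rb, Pdcd1, Eno1, Ldha and Rsad2, and the promoter motifs, were chosen after their values were seen.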

Additional observations from a re-analysis of the deposited data

Results flagged for a closer look

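The change over time differed between CD28 Y170F and CD28 AYAA by a direct test of the difference at 6679 genes. Among the genes named for the size of this difference, it was higher in CD28 Y170F for Rnu3a (4.72), Bambi-ps1 (3.96), Mxd4 (3.33), Klhl24 (3.02), Myb (2.92) and Trp53inp1 (2.86), on the log2 scale. It was lower for Lif (-6.91), Lta (-5.71), Lrrc32 (-4.52), Cish (-4.21), Gzmb (-3.63) and Srm (-3.57).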

How the results depend on the processing

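The 7374 genes called between 24 h and 72 h were 7391 with RLE size factors (3967 higher), 7440 with DESeq2, 7500 with limma-voom, 6734 without a filter on low counts and 4997 in a fit to only the 2 groups. Leaving out each library in turn gave 6227 to 7925, the lowest without library 3 of 72 h and the highest without library 1. The difference from WT stayed at 0 genes in every edgeR fit and in limma-voom, with each library left out and with WT number 1 or 4 alone, while DESeq2 gave 5, and the cause was not tested. The difference from CD28 AYAA ranged from 5897 to 6890 genes over the other tools and filters, and from 5230 to 8102 as libraries were left out. Among 170 named values with 2312 alternatives, 2259 kept their side of the threshold, and their direction where they were called. Values not called in either fit could change sign within this number. Pkm did so, at 0.21 with all libraries and -0.44 without library 1 of 72 h. A call was lost by 29 and gained by 22, and 2 reversed, both of Tpi1. Tpi1, 0.32 with all libraries, was -1.0 to 0.72 as single libraries were left out, lowest without library 1 of 72 h. It was -1.08 without both libraries of number 1. Of 1040 list counts under alternatives, 136 moved beyond 1.5 times. Replicate numbers are shared across the days, and library 3 of both CD28 Y170F and CD28 AYAA carried Xist on both days (2299 to 2653 CPM) while libraries 1 and 2 did not (at most 0.9293). The deviations of same-numbered libraries from their group mean correlated across the days at -0.055, 0.18 and 0.30 in CD28 Y170F. Library 1 of 24 h correlated most with library 2 of 72 h there, at 0.33. These values cannot settle whether the numbers pair the days there, since the outlying library 1 of 72 h shifts the group mean. The main fit used no pairing, as the labels state none. In CD28 AYAA the deviations correlated at 0.47, 0.27 and 0.67, each library highest with its own number. Same-numbered libraries of CD28 Y170F and CD28 AYAA correlated at 0.44, 0.44 and 0.74 at 24 h. At 72 h these values were -0.16, 0.22 and 0.26. What the numbers share between genotypes was not tested. With the replicate block, fitted within each genotype, the counts were 7639 for the change over time, 0 for the difference from WT and 7015 for that from CD28 AYAA. Among the named values the block added calls for the change over time of Galk1 (-1.02, adjusted p = 0.040) and Fabp5 (-0.97, adjusted p = 0.020) and for the differences of Pkm and Srrt from CD28 AYAA, and it changed no other call.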
